A study of Mus musculus with 6 samples.

Results

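Succinate dehydrogenase is complex II of the mitochondrial respiratory chain, and its genes were examined in quadriceps RNA from mice that lost the mitochondrial fission protein Drp1 in skeletal muscle. The members are the 4 subunits, Sdha, Sdhb, Sdhc and Sdhd, and the 4 assembly factors, Sdhaf1, Sdhaf2, Sdhaf3 and Sdhaf4, taken by gene symbol from the count files. All 8 were found among the 27179 genes listed, and all 8 were among the 16483 genes that passed the filter on low counts. The set was chosen in part on the contrast described here, because Sdha lay lower in miDrp1KO muscle while other respiratory chain genes tended to lie higher. For that reason the differences between genotypes in these genes, and in the respiratory chain genes set beside them, are given as a description. Where the number of these genes past a threshold is printed, it stands beside the share over all genes, and nothing is read from it.

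The 8 genes are scattered over 7 chromosomes (GRCm38, GENCODE M21), with Sdhc and Sdhaf4 far apart on chromosome 1. Among the subunits, Sdha (Entrez gene 66945) spans chr13:74322254-74350280, Sdhb chr4:140961203-140979193, Sdhc chr1:171127165-171150603 and Sdhd chr9:50596357-50603812. Among the assembly factors, Sdhaf1 spans chr7:30321406-30323895, Sdhaf2 chr19:10500534-10526142, Sdhaf3 chr6:6956004-7042979 and Sdhaf4 chr1:23995939-24005656. Sdhb and Sdhaf3 lie on the plus strand and the other 6 on the minus strand.

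Complex II is the only enzyme that belongs both to the tricarboxylic acid (TCA) cycle and to the respiratory chain: it oxidises succinate to fumarate and passes the electrons to ubiquinone. Sdha is the flavoprotein that carries covalently bound FAD and the succinate site, Sdhb holds the iron-sulphur clusters that relay the electrons, and Sdhc and Sdhd anchor the enzyme in the inner membrane and shape the ubiquinone site and its haem. Sdhaf2 promotes the attachment of FAD to Sdha, Sdhaf4 binds the flavinated Sdha and helps it join Sdhb, and Sdhaf1 and Sdhaf3 serve the maturation of Sdhb. All of these proteins are encoded in the nucleus, unlike part of the other complexes, and succinate dehydrogenase staining is a classical way to tell oxidative from glycolytic muscle fibres.

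The series holds 6 libraries of total RNA from quadriceps, 1 for each mouse: 3 from mice labelled control f/f (libraries B, C and D) and 3 from mice labelled miDrp1KO (libraries A, E and F), all on a normal chow diet. In the miDrp1KO mice the floxed Dnm1l gene, which encodes Drp1, is deleted by a tamoxifen-inducible Cre recombinase under the human skeletal actin promoter, so that cells other than myofibres keep the gene. Both groups received tamoxifen at 3 months of age, and the muscle was taken 3 weeks after the deletion. The control group is described as homozygous in its label and as heterozygous or homozygous floxed mice in the study's methods, and whether a control carried the Cre is not stated in the sources used here. The sequenced quadriceps expressed the myofibre markers at high levels, with a summed level of 82216 to 211057 CPM over 5 genes, where CPM is the number of counts per 1000000 counts of a library.

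The libraries held 13989588 to 62042255 counts, and 1.48% to 24.4% of these lay on ribosomal RNA genes, most in miDrp1KO libraries A and F and least in miDrp1KO library E. Dnm1l itself measured 156, 114 and 140 CPM in controls B, C, D against 70.6, 81.3 and 66.2 CPM in miDrp1KO A, E, F. All miDrp1KO libraries lay below all control libraries, with a log2 fold change of −0.91 ± 0.18 (SE). Over all genes, edgeR's quasi-likelihood test called 2 of 16483 at a Benjamini-Hochberg adjusted p under 0.05 (0.0121%), and neither is a member. Levels are TMM-scaled CPM throughout, which depends on gene length, and the replicates are separate mice. In whole muscle, fewer cells of a type and less RNA per cell cannot be told apart.

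How much of each transcript the muscle held was compared per kilobase of merged exons. The order of levels among the members took no part in the choice of the genes. Both genotypes were pooled, however, so pairs with Sdha also hold the genotype difference on which the choice in part rests. Sdhb had the highest median over the 6 libraries, 145 CPM per kilobase (range 91.1 to 229), and Sdha followed with 89.0 (range 70.3 to 177). Sdhc stood at 37.0 (range 30.3 to 54.4). The 4 genes Sdhaf1, Sdhaf4, Sdhaf2 and Sdhd lay close together with medians of 5.25, 5.25, 5.08 and 4.69 CPM per kilobase, and Sdhaf3 was lowest with 1.11 (range 0.502 to 1.29). On merged exons the order thus ran from a catalytic pair at high level, through 1 membrane anchor, to the second anchor at the level of the assembly factors.

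**Figure D1:**
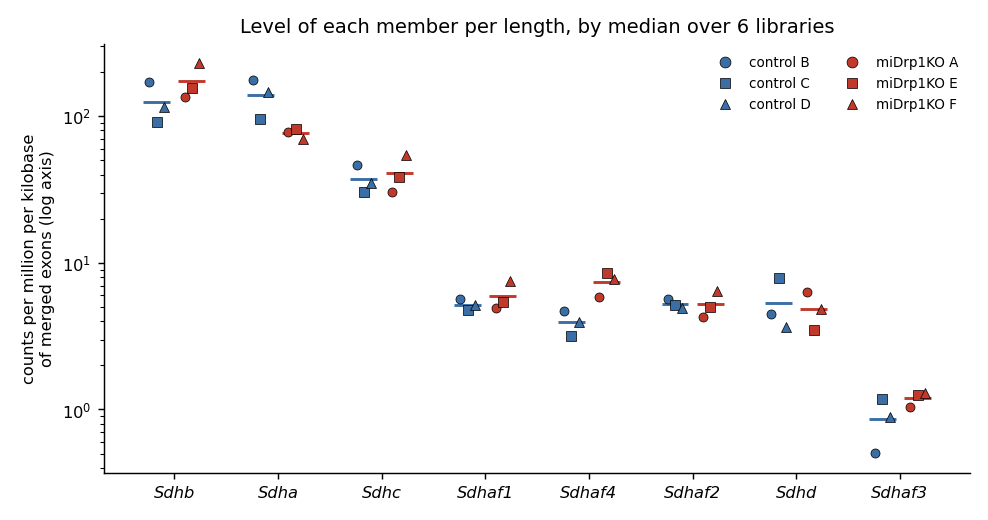
Level of each member in CPM per kilobase of merged exons (log axis), ordered by the median over 6 libraries. Blue symbols are the 3 control libraries, red symbols the 3 miDrp1KO libraries, and bars the group means. Sdhb, Sdha and Sdhc lie apart from the assembly factors, and Sdhd sits among the assembly factors near 5 CPM per kilobase.

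Of the 28 pairs of members, 21 showed the same order in every library and passed the test (two-sided exact sign-flip permutation over 6 libraries, Benjamini-Hochberg adjusted p = 0.0417, from an exact p of 0.0312, the smallest that 6 libraries can give). Sdhc exceeded Sdhd by 2.97 ± 0.68 (SD, n = 6) in the log2 ratio of counts per kilobase, although both anchors stand once in each complex. Sdha exceeded Sdhc by 1.41 ± 0.63 (SD, n = 6). The 7 pairs that did not pass were Sdha with Sdhb and the 6 pairs among Sdhaf1, Sdhaf4, Sdhaf2 and Sdhd. For Sdhb over Sdha the log2 ratio was 0.49 ± 0.78 (SD, n = 6; exact permutation p = 0.25, adjusted p = 0.304), and its sign followed genotype: Sdha was above Sdhb per kilobase in controls B, C, D against below it in miDrp1KO A, E, F. Which of the pair stood higher also depended on the length used. With the longest coding transcript (2900 bases for Sdha, 1142 for Sdhb) in place of merged exons (4126 and 2239), Sdhb lay above Sdha in 6 of 6 libraries by 0.95 ± 0.78 (exact permutation p = 0.0312, adjusted p = 0.0365), and 24 of the 28 pairs passed. Sdhaf2 likewise lay above Sdhd in 6 of 6 libraries with that length, by 0.96 ± 0.53 (exact permutation p = 0.0312, adjusted p = 0.0365), while on merged exons the pair did not pass.

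Sdhd was a thinly counted gene for a core subunit, with 117 to 270 counts in a library where Sdhc had 1351 to 6867. Its longest coding transcript of 1231 bases shares no stretch of 50 bases with an annotated transcript of another gene, so no near-identical annotated copy was found that could take its reads. Copies in the genome outside annotated transcripts could not be searched for, so reads lost to such a copy were not tested. How reads with several genomic matches were handled is not given in the sources used here.

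Sdha, the flavoprotein subunit, was the member with the largest separation downwards. It measured 732, 397 and 607 CPM in controls B, C, D against 320, 337 and 290 CPM in miDrp1KO A, E, F. Each miDrp1KO library lay below each control library, and the highest of the miDrp1KO libraries, E, reached 0.85 of the lowest control, C. The group means were 579 ± 169 CPM (SD, n = 3) in controls and 316 ± 23.9 CPM (SD, n = 3) in miDrp1KO, a log2 fold change of −0.87 ± 0.24 (SE). The controls spread over a wider range than the knockouts did, with control B highest and control C lowest. Without control B the log2 fold change was −0.65, and without control C it was −1.10.

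Sdhb, the iron-sulphur subunit that binds directly to Sdha, pointed the other way. It measured 381, 204 and 260 CPM in controls B, C, D against 303, 348 and 512 CPM in miDrp1KO A, E, F. The groups overlapped, since control B exceeded 2 of the 3 miDrp1KO libraries. The means were 282 ± 90.7 and 388 ± 110 CPM (SD, n = 3 each), with a log2 fold change of 0.46 ± 0.27 (SE). Without miDrp1KO F it was 0.23, and without control B it was 0.76.

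The membrane anchors showed no separation of the groups. Sdhc measured 151, 98.5 and 114 CPM in controls B, C, D against 98.9, 126 and 177 CPM in miDrp1KO A, E, F, a log2 fold change of 0.14 ± 0.24 (SE). Sdhd measured 5.54, 9.77 and 4.5 CPM in the controls and 7.73, 4.29 and 6.0 CPM in miDrp1KO, a log2 fold change of −0.12 ± 0.32 (SE). Control C held the highest Sdhd value and the lowest Sdhc value of the 6 libraries. The sign of both differences turned under some settings, so no direction is given for either gene.

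**Figure D2:**
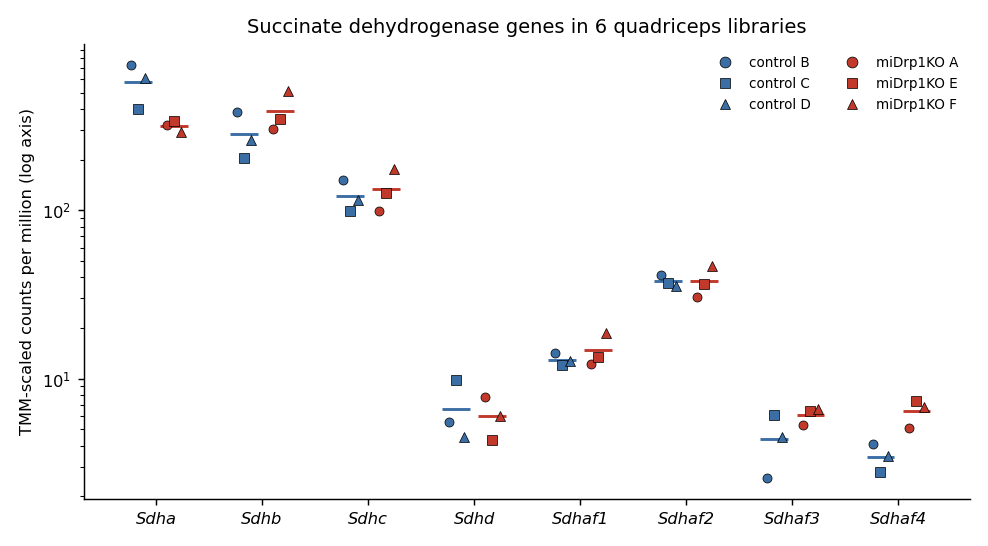
TMM-scaled CPM (log axis) of the 8 genes in each library. Blue symbols are control B, C and D, red symbols are miDrp1KO A, E and F, and bars are the group means. The groups are apart for Sdha (316 against 579 CPM) and for Sdhaf4 (6.44 against 3.43 CPM) and overlap for the other 6 genes. Over all genes, 10.3% lay lower and 7.67% higher without overlap.

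Sdhaf4, the factor that binds flavinated Sdha, was the member with the largest separation upwards, at a low level. It measured 4.07, 2.77 and 3.45 CPM in controls B, C, D against 5.10, 7.40 and 6.81 CPM in miDrp1KO A, E, F. All miDrp1KO libraries lay above all control libraries, and the highest control reached 0.798 of the lowest miDrp1KO library. The means were 3.43 ± 0.652 and 6.44 ± 1.19 CPM (SD, n = 3 each), with a log2 fold change of 0.90 ± 0.24 (SE). These values rest on 38 to 302 counts in a library. In a search of both strands, 9.94% of the 50-base stretches of its 683-base transcript are shared with another gene, Gm26524. Once length and GC content were corrected for, its log2 fold change was 0.73.

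Sdhaf2, needed for FAD attachment to Sdha, was level between the groups. It measured 41.0, 36.9 and 35.6 CPM in controls B, C, D against 30.7, 36.2 and 46.4 CPM in miDrp1KO A, E, F. The means were 37.8 ± 2.80 and 37.8 ± 7.98 CPM (SD, n = 3 each), with a log2 fold change of −0.0018 ± 0.18 (SE), and the miDrp1KO libraries reached both below and above the controls.

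The factors that serve Sdhb overlapped between the groups. Sdhaf1 measured 14.1, 12 and 12.7 CPM in controls B, C, D against 12.2, 13.4 and 18.7 CPM in miDrp1KO A, E, F, with a log2 fold change of 0.19 ± 0.19 (SE) that was 0.0090 without miDrp1KO F. Most of its transcript, 69.0% of the 50-base stretches, is shared with another gene, E130208F15Rik, in a search of both strands. Reads of Sdhaf1 may therefore not be told from those of that gene. The strand setting of the counting is not given in the sources used here. Sdhaf3 measured 2.56, 6.05 and 4.51 CPM in the controls and 5.30, 6.45 and 6.57 CPM in miDrp1KO, with a log2 fold change of 0.50 ± 0.29 (SE) that was 0.25 without control B. Control C lay among the miDrp1KO libraries for Sdhaf3, and control B was far lower at 54 counts.

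Set beside the background of all genes, 1 of 8 members did not overlap and was higher (Sdhaf4) where 7.67% of the genes tested did so, and 1 of 8 did not overlap and was lower (Sdha) where 10.3% did so. The same genes were the members at an unadjusted p under 0.05 in edgeR, 1 higher where 4.68% of all genes were and 1 lower where 6.22% were. No member passed edgeR's adjusted threshold. DESeq2 called 1 member, Sdha, lower, out of 5 members with an adjusted p, where it called 0.977% of genes lower, and without its independent filtering it called no member. As the members were chosen on this contrast, nothing is read from these counts. Of the 8 members, 5 had a log2 fold change above 0, and the median was 0.17 beside 0.017 over all genes tested. Without miDrp1KO F the median turned to −0.038 with 4 of 8 above 0, and without miDrp1KO A it was 0.34 with 6 of 8, so no direction is given for the members as a group.

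Ratios of counts within a library do not depend on how the libraries were scaled, and were taken for Sdha against each of the other members. Control B, C and D held 1.92, 1.95 and 2.34 counts of Sdha for each count of Sdhb. In miDrp1KO A, E and F the ratio was 1.06, 0.968 and 0.566. The groups were apart, and the mean log2 ratio was 1.04 ± 0.16 in controls and −0.26 ± 0.49 in miDrp1KO (SD, n = 3 each), a difference of −1.30. Leaving out any 1 library gave differences from −1.47 to −1.02. Library F held both the lowest Sdha and the highest Sdhb of the miDrp1KO group.

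Sdha lay lower in every miDrp1KO library than in every control relative to Sdhc, Sdhaf1, Sdhaf2, Sdhaf3 and Sdhaf4 too. For Sdhc the ratio was 4.86, 4.03 and 5.31 in controls B, C, D against 3.23, 2.68 and 1.64 in miDrp1KO A, E, F. For Sdhaf4, its binding partner in assembly, it was 180, 143 and 176 in the controls and 62.7, 45.5 and 42.5 in miDrp1KO. This was the widest gap of the 7 ratios, with a difference of −1.74 on the log2 scale. The ratio to Sdhd overlapped, at 132, 40.6 and 135 in the controls and 41.4, 78.6 and 48.3 in miDrp1KO. The 7 ratios share the Sdha counts and are therefore not separate observations.

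**Figure D3:**
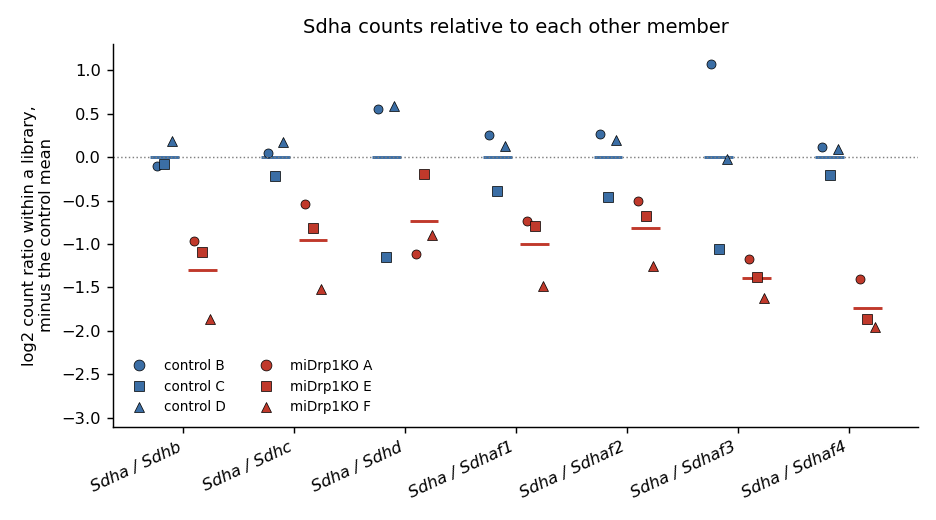
Log2 ratio of Sdha counts to the counts of each other member within a library, minus the control mean (0, dotted line). Blue symbols are the 3 control libraries, red symbols the 3 miDrp1KO libraries, and bars the group means. The groups are apart for 6 of the 7 ratios, from −0.81 for Sdhaf2 to −1.74 for Sdhaf4, and overlap for Sdhd.

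The promoters of 3 members are shown: Sdha, which shares its start region with another gene, Sdhb, the subunit that binds it, and Sdhaf4, whose groups were apart in the other direction. The sequences are RefSeq's, build GRCm38.p6, from 250 bases before the start site to 30 bases after it, read in the direction of transcription. An entry was matched for 7 of the 8 members, Sdhc having none. Capitals mark matches on either strand to GCGCANG, part of the core recognised by nuclear respiratory factor 1 (NRF1), or to CCGGAAG, the core of ETS factors such as GABP. Sdha lies at chr13:74350211-74350490 (minus strand), Sdhb at chr4:140961021-140961300 (plus strand) and Sdhaf4 at chr1:24005611-24005890 (minus strand).
Sdha: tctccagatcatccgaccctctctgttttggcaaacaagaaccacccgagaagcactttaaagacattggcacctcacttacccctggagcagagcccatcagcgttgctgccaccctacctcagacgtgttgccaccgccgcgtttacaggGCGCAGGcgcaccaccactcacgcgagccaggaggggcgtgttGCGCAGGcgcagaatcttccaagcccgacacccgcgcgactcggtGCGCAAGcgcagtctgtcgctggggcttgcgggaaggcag
Sdhb: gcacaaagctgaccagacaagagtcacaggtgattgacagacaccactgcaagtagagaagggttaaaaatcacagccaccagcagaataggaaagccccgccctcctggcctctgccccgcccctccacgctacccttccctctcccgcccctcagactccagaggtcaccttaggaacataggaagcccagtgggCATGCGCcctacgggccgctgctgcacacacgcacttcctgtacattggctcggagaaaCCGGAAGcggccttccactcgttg
Sdhaf4: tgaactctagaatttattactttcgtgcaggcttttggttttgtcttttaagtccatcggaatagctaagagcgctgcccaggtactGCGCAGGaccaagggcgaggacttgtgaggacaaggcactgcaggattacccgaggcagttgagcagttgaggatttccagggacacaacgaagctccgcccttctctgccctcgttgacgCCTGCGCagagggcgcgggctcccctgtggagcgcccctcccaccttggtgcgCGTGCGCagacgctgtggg

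The Sdha window held 3 matches to the NRF1 letters, all on the strand of the gene at 10 to 4, 55 to 49 and 98 to 92 bases before the start site, and none to the ETS core. The Sdhb window held 1 match to each, the ETS core at 7 to 13 bases after the start. Sdhaf4 held 3 matches to the NRF1 letters and none to the ETS core. Among the members not printed, Sdhd held 2 and 1, Sdhaf3 held 1 of each, and Sdhaf1 and Sdhaf2 held 1 and 2 matches to the ETS core alone. Over all 32851 promoter windows of the same 280 bases, 15.6% held the NRF1 letters and 8.45% the ETS core. Another motif, AAGGTCA, the half-site of oestrogen-related receptors, was in none of the 7 windows and in 4.46% of all windows. The motifs do not overlap one another in these windows and were chosen after the sequences and the expression values had been seen. A match of letters is not evidence of binding, and the absence of a match says only that these letters are not in the window.

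Ccdc127, a coiled-coil gene, starts 29 bases from Sdha on the opposite strand in the GENCODE M21 annotation (GRCm38), so its first bases lie inside the Sdha window. It measured 78.0, 78.6 and 78.8 CPM in controls B, C, D against 69.6, 58.5 and 59.5 CPM in miDrp1KO A, E, F. All miDrp1KO libraries lay below all controls, with a log2 fold change of −0.33 ± 0.16 (SE) and an edgeR adjusted p of 0.472, which does not pass. On the other side of Sdha, Pdcd6, a calcium-binding protein gene, had a log2 fold change of −0.036 ± 0.16 (SE). Among the 5 nearest tested genes on each side of Sdha, 3 lay lower without overlap (Ccdc127, Exoc3 and Erap1) and 1 higher (Ahrr, at under 1 CPM in all libraries), where 10.3% and 7.67% of all genes did so.

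**Figure D4:**
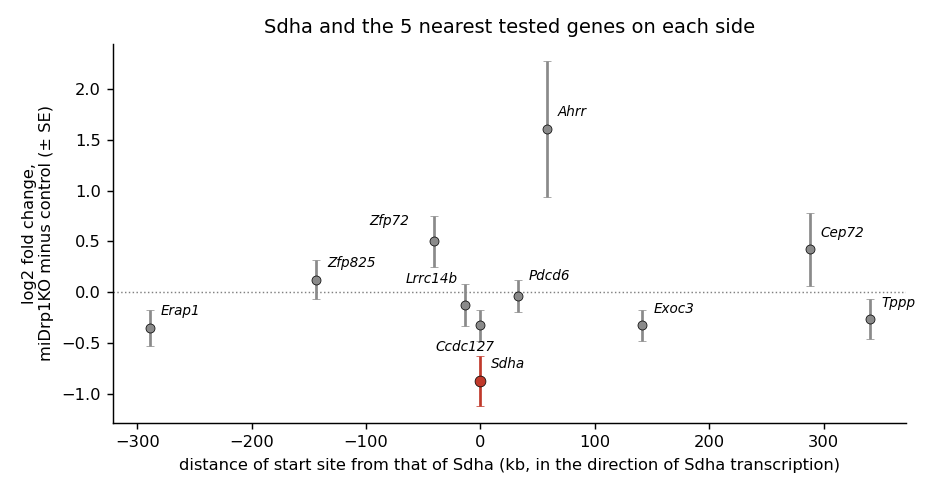
Log2 fold change (miDrp1KO minus control, edgeR, bars ± SE) of Sdha in red and of the 5 nearest tested genes on each side in grey, by the distance of their start sites from that of Sdha in kilobases. Sdha at −0.87 is the lowest, Ccdc127 at the same start region stands at −0.33, and Ahrr at 1.61 rests on very low counts.

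Start sites of other members also lie close to those of neighbours. Timm8b, a chaperone gene of the mitochondrial intermembrane space, starts 98 bases from Sdhd on the opposite strand and measured 41.4, 58.5 and 44.8 CPM in controls B, C, D against 64.2, 65.6 and 76.7 CPM in miDrp1KO A, E, F. These groups were apart, with a log2 fold change of 0.51 ± 0.18 (SE) and an edgeR adjusted p of 0.392, while those of Sdhd overlapped. Cpsf7 runs opposite to Sdhaf2 with overlapping 5′ ends, and its log2 fold change was −0.13 ± 0.17 (SE; edgeR adjusted p = 0.821). Of the 14 nearest genes of the 7 members other than Sdha, 10 overlapped between the groups, Timm8b was higher, and Atp13a2 beside Sdhb, Lrfn3 beside Sdhaf1 and Fam135a beside Sdhaf4 were lower without overlap, beside 7.67% higher and 10.3% lower over all genes.

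The 4 lists of nuclear respiratory chain and ATP synthase subunits had medians above 0, as Sdhb had. Of 78 tested subunits of complexes I, III, IV and ATP synthase, 63 had a log2 fold change above 0, with a median of 0.30 beside 0.017 over all genes. Sdha stood 1.17 below that median on the log2 scale (difference of −1.17), below the lowest of the 78, which was −0.43. As this tendency was part of the choice of the genes, nothing is read from the counts past a threshold: edgeR called 0 of the 78, with 19 higher (4.68% over all genes) and 0 lower (6.22%) at an unadjusted p under 0.05, and DESeq2 called 3 of 76 higher (0.201% over all genes). Without miDrp1KO F the median of the 78 was 0.16, with length and GC content corrected for it was 0.19 (56 of 78 above 0), and with a slow fibre score added as a covariate it was 0.20.

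Complex I, the NADH dehydrogenase, had 28 of 36 subunits above 0 and a median of 0.33, which was 0.14 without miDrp1KO F, 0.21 with the slow fibre covariate and 0.22 with length and GC content corrected for. Its subunit Ndufc2 measured 37.9, 41.1 and 32.5 CPM in controls B, C, D against 46.6, 64.9 and 90.9 CPM in miDrp1KO A, E, F. Ndufb11 measured 106 to 111 CPM in controls and 129 to 231 CPM in miDrp1KO. Ndufs3, a core subunit, lay the other way without overlap, at 72.6 to 83.0 CPM in controls and 58.2 to 71.1 CPM in miDrp1KO. Complex IV, cytochrome c oxidase, had 13 of 15 subunits above 0 and the highest median of the 4, 0.49, which was 0.28 without miDrp1KO F and 0.25 with the slow fibre covariate. Its small subunit Cox7b measured 169 to 194 CPM in controls and 230 to 359 CPM in miDrp1KO, and Cox6c 274 to 365 and 412 to 597 CPM. Complex III had 6 of 8 above 0 with a median of 0.21, but 4 of 8 and a median of 0.018 without miDrp1KO F, and 4 of 8 and 0.020 with the slow fibre covariate. The 1 complex III gene without overlap was Uqcrh, at 243 to 283 CPM in controls and 302 to 356 CPM in miDrp1KO. Over all genes, 7.67% lay higher and 10.3% lower without overlap. ATP synthase had 16 of 19 above 0 with a median of 0.23. Its subunit Atp5e measured 40.3 to 50.7 CPM in controls and 61.0 to 117 CPM in miDrp1KO, and Atp5j2 88.8 to 114 and 136 to 236 CPM.

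The TCA cycle enzymes other than complex II had a median below 0, as Sdha had. None of the 14 had a log2 fold change above 0, and the median was −0.30, with single genes from −0.62 to −0.060. Ogdh, the E1 subunit of 2-oxoglutarate dehydrogenase, which yields succinyl-CoA, measured 657, 361 and 502 CPM in controls B, C, D against 337, 352 and 300 CPM in miDrp1KO A, E, F. Cs, the citrate synthase of the first step, measured 505, 336 and 411 CPM in the controls and 309, 317 and 332 CPM in miDrp1KO. Both genes showed the order of controls seen in Sdha, with B highest and C lowest. The edgeR test called 0 of the 14, with 0 higher and 2 lower at an unadjusted p under 0.05, beside 4.68% and 6.22% of all genes, and 4 were lower without overlap, beside 10.3%. Under upper quartile scaling, in limma voom and without miDrp1KO A 1 of the 14 lay above 0. Without control B 3 did, with a median of −0.15.

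**Figure D5:**
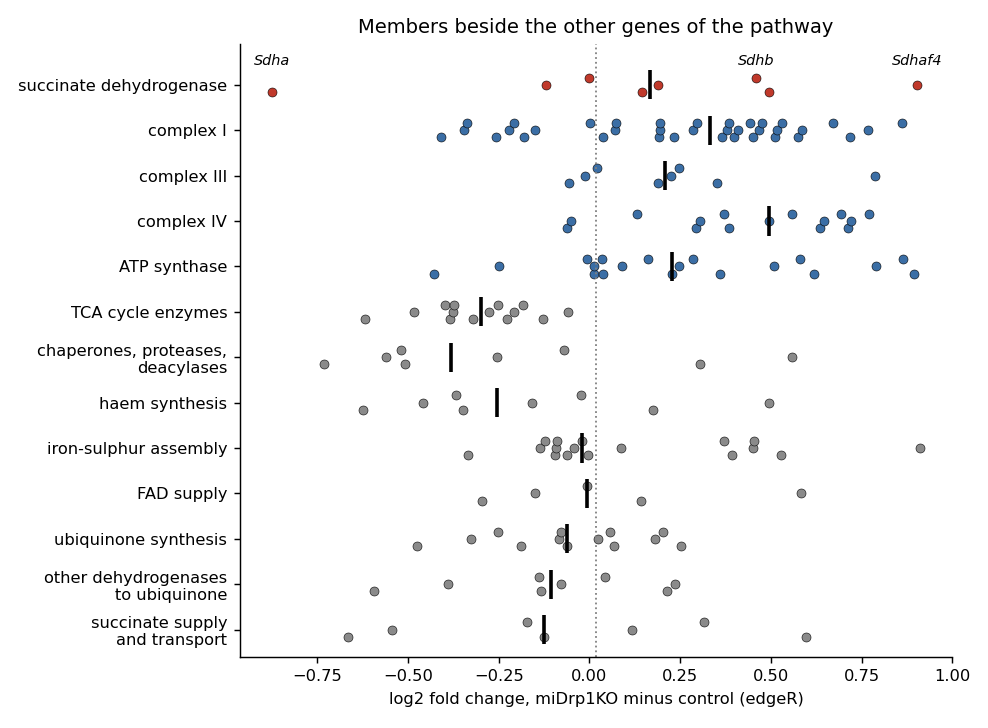
Log2 fold change (miDrp1KO minus control) of each tested gene, by list. Red points are the 8 members, blue points the other respiratory chain and ATP synthase subunits, grey points the remaining lists, black bars the medians, and the dotted line the median over all genes tested (0.017). Sdha at −0.87 lies left of all other points, and the TCA cycle enzymes all lie left of 0.

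Genes for proteins that fold, degrade or deacylate complex II also lay mostly lower, with 6 of 8 below 0 and a median of −0.38. Lonp1, the matrix protease, measured 83.1, 59.2 and 75.9 CPM in controls B, C, D against 49.7, 41.0 and 41.0 CPM in miDrp1KO A, E, F. Its log2 fold change was −0.73 ± 0.18 (SE; edgeR adjusted p = 0.362), and it was the 1 gene of the 12 lists that DESeq2 called lower. Sirt5, the mitochondrial desuccinylase, measured 6.19 to 7.39 CPM in controls and 3.89 to 5.17 CPM in miDrp1KO. The other genes of this list without overlap were Trap1, a chaperone that binds succinate dehydrogenase, Hspd1 and Clpx, all lower. In total 5 of the 8 were lower without overlap, beside 10.3% of all genes. In edgeR 0 were higher and 4 lower at an unadjusted p under 0.05, beside 4.68% and 6.22% of all genes. As the list was chosen with earlier results known, nothing is read from these counts. Sirt3, the main mitochondrial deacetylase, had a log2 fold change of 0.56 with overlapping groups.

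The supply of the cofactors showed no single direction. Of the haem synthesis enzymes, whose product sits between Sdhc and Sdhd, 6 of 8 lay below 0 with a median of −0.25, which was −0.11 without miDrp1KO E. Fech, which inserts the iron in the last step, measured 144 to 147 CPM in controls and 97.5 to 122 CPM in miDrp1KO, and Cpox 18.5 to 20.7 and 14.2 to 17.6 CPM. Of the iron-sulphur cluster genes that serve Sdhb, 7 of 17 lay above 0 with a median of −0.020. Isca2, a late-acting cluster carrier, measured 21 to 22.7 CPM in controls and 24.8 to 38.0 CPM in miDrp1KO. Of the FAD supply genes, 2 of 5 lay above 0 with a median of −0.0079, and Slc52a2, a riboflavin transporter, measured 1.46 to 1.94 CPM in controls and 2.03 to 3.46 CPM in miDrp1KO. The signs of the iron-sulphur and FAD medians turned in 7 and 5 of 17 alternative settings, so neither list is given a direction.

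Genes on either side of the reaction gave small medians. Ubiquinone synthesis had 6 of 13 above 0 and a median of −0.062, and the other dehydrogenases that reduce ubiquinone 3 of 8 and a median of −0.11. No gene of these 2 lists was without overlap, where 7.67% of all genes lay higher and 10.3% lower without overlap. Succinate transport, supply and sensing had 3 of 7 above 0 and a median of −0.13, and Aldh5a1, which makes succinate from succinate semialdehyde, measured 8.09 to 11.6 CPM in controls and 5.81 to 7.49 CPM in miDrp1KO. The signs of these 3 medians turned in 3, 2 and 2 of 17 settings, succinate transport standing at 0.20 without control B, so no direction is given for them. Over the 12 lists together, 158 genes were tested and edgeR called 0, with a lowest adjusted p of 0.362. At an unadjusted p under 0.05 there were 22 higher and 9 lower, beside 4.68% and 6.22% of all genes, and of 134 with an adjusted p DESeq2 called 3 higher and 1 lower, beside 0.201% and 0.977%. Of the 22 higher, 19 are the respiratory chain subunits above, so these counts are no separate evidence.

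Fibre type markers were read beside these genes. The summed level of the 4 fast fibre markers was 71884 to 85745 CPM in controls and 27324 to 57803 CPM in miDrp1KO, with Myh4 the highest of them in every library. Myh4, the fast myosin heavy chain, measured 49885, 58256 and 62914 CPM in controls B, C, D against 40363, 17190 and 12241 CPM in miDrp1KO A, E, F. Of the other fast markers, Myh1 at −0.81 and Actn3 at −0.95 overlapped between the groups, and Pvalb stood at 0.028. The slow fibre markers were above 0 in 8 of 8 genes, with a median of 1.46 that was 3.46 without control B and 0.94 without control C, and their sum overlapped, at 646, 72.9 and 129 CPM in controls B, C, D against 127, 902 and 828 CPM in miDrp1KO A, E, F. The marker of fast oxidative fibres, Myh2, stood at 6215, 2440 and 3454 CPM in controls B, C, D against 2390, 3293 and 1562 CPM in miDrp1KO A, E, F, with a log2 fold change of −0.74 and overlapping groups. It was −0.27 without control B and −0.48 without miDrp1KO F. The order of Myh2 within each group was that of Sdha, with B highest and C lowest among the controls and E highest and F lowest among the knockouts. This order was not particular to Myh2. The fast marker Myh1 had it too, at 11035, 1526 and 6437 CPM in controls B, C, D against 2915, 5171 and 2730 CPM in miDrp1KO A, E, F. Sdhb and Sdhc shared the order of the controls but not that of the knockouts. When this score of slow markers entered the fit as a covariate, the log2 fold change was −0.97 for Sdha, 0.22 for Sdhb and 0.70 for Sdhaf4. Their part in the results was otherwise not tested.

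Markers of other cells gave these values. The adipose markers had log2 fold changes below 0 in 5 of 5 tested genes, with a summed level of 64.5 to 141 CPM in controls and 24.2 to 58.0 CPM in miDrp1KO. Adipoq, the adiponectin gene, measured 23.9 to 52.9 and 9.78 to 21.1 CPM, and Plin1 14.0 to 25.8 and 4.83 to 12.6 CPM. Of the 5 myofibre markers, 5 had a log2 fold change below 0 (4 of 5 under 6 alternatives, among them without control C or miDrp1KO E), with overlapping sums, and Acta1 and Tnnt3 lay lower without overlap. The nerve markers had log2 fold changes above 0 in 4 of 4 and the fibroblast markers in 4 of 4 (3 of 4 without control B or miDrp1KO E), with overlapping sums. The macrophage, endothelial and blood markers, whose sums also overlapped, are given no direction: their counts above 0 were 2 of 5, 1 of 4 and 3 of 4. Macrophage markers were above 0 in 5 of 5 under upper quartile scaling, in limma voom, with the slow fibre covariate and without control C or miDrp1KO F. Endothelial markers were above 0 in 3 of 4 without control B. Blood markers were above 0 in 0 of 4 with the slow fibre covariate and without control C, control D or miDrp1KO E, and in 4 of 4 in limma voom and without miDrp1KO A, control B or miDrp1KO F. Cd68 of macrophages lay higher without overlap, at 2.41 to 5.39 CPM in controls and 5.76 to 6.66 CPM in miDrp1KO. No tested marker was at 0 in all libraries, and their part in the values of the members was not tested.

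The genes whose levels followed Sdha most closely over the 6 libraries were Tmem186, an assembly factor of complex I (Pearson r of log2 CPM 0.996), Pdha1, the E1 alpha subunit of pyruvate dehydrogenase (0.993), Ints10 (0.991), Afg3l2, a protease of the inner membrane (0.990), and Gfm2, a mitochondrial translation factor (0.989), among 7173 genes at a mean of 10 CPM or more. Pdha1 measured 563, 407 and 509 CPM in controls B, C, D against 350, 363 and 356 CPM in miDrp1KO A, E, F. All 5 lay lower in every miDrp1KO library than in every control, where 10.3% of all genes did so. Their range was smaller than that of Sdha, from −0.33 to −0.56 on the log2 scale. They were chosen for following Sdha, whose groups were apart, so their separation is no separate observation. With each group centred on its own mean, r was 0.968 to 0.987. For Sdhb the genes were Gpihbp1, which carries lipoprotein lipase on capillaries (0.998), Nudt8 (0.980), Lamtor3 (0.967), Mrpl41, a mitochondrial ribosomal protein (0.963), and Eci1, an enzyme of fatty acid oxidation (0.959). All 5 overlapped between the groups, as Sdhb did, where 7.67% of all genes lay higher and 10.3% lower without overlap. For each of them miDrp1KO F was the highest library. These correlations are a description over 6 libraries that share depth and genotype with the members, and the 2 sets of genes have no gene in common.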

How the data were processed

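Total RNA from quadriceps was depleted of ribosomal RNA and sequenced with a stranded kit. According to the study's methods the reads were aligned to GRCm38 and counted with Rsubread, and the authors deposited the raw counts per gene of each library. The submitters' processing notes name FastQC and DESeq2 1.30.0. Genes carry Entrez identifiers, matched here to GENCODE M21 (GRCm38) for lengths and positions, with a length and GC content for 97.1% of the genes tested.

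Counts were scaled with TMM and fitted with edgeR 4.0.16 (R 4.3.3; filterByExpr by genotype, robust quasi-likelihood test, Benjamini-Hochberg adjustment over 16483 genes, threshold 0.05), 3 libraries against 3. On simulated data the fit was checked before use. Means ± SD are of TMM-scaled CPM, log2 fold changes are miDrp1KO minus control, each with the SE of the fit. Levels between genes were compared as counts per kilobase with a two-sided exact sign-flip permutation test. Alternatives were DESeq2 1.42.0, limma voom (limma 3.58.1), RLE and upper quartile scaling, 2 other filters on low counts, a count table without Lars2 and the genes of ribosomal RNA, a covariate (the share of counts on ribosomal RNA, or a slow fibre score, the mean log2 CPM of the slow markers), an offset for length and GC content (natural spline, 5 degrees of freedom), other lengths, and leaving out each library.

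The members, the 12 pathway lists and the markers were chosen with earlier results of these data known. Named were the 8 members, Dnm1l, up to 2 higher and 2 lower genes per list with the largest difference among those whose groups did not overlap, the 5 genes most correlated with Sdha and with Sdhb (mean of 10 CPM or more), and the nearest tested gene on each side of each member, 5 on each side for Sdha. Some genes that the rule takes are not reported here. Genes named beyond it (Trap1, Hspd1, Clpx, Sirt3, Myh1, Myh2, Actn3 and Pvalb) were picked with their values already seen. The libraries were sequenced in pools whose members are not given in the sources used here. Rows without a gene symbol (874 of 27179) stayed in the fit.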

Additional observations from a re-analysis of the deposited data

How the results depend on the processing

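Sdha kept its negative sign under all 17 alternatives, from −0.97 (slow fibre score as a covariate) to −0.79 (upper quartile scaling) and from −1.10 to −0.65 when 1 library was left out. Its distance below the median of the respiratory chain subunits ran from −1.18 to −1.05, and from −1.38 to −0.96 without 1 library. Sdhb, Sdhaf1, Sdhaf3 and Sdhaf4 kept a positive sign under all 17, at lowest 0.22, 0.0090, 0.25 and 0.70, while the sign of Sdhc turned in 3, of Sdhd in 3 and of Sdhaf2 in 8. The members' median ran from 0.081 to 0.26, and from −0.038 (without miDrp1KO F) to 0.34 without 1 library. None of these values moved by more than the spread between replicates.

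The number of genes called was 82 with DESeq2, 32 with DESeq2 without independent filtering (added after seeing the data), 8 with no filter on low counts, 1 with a covariate for ribosomal RNA share, 4 with another for slow fibre score, beside 2 in the fit reported, and 1 to 7 without 1 library. Genes at an unadjusted p under 0.05 numbered 951 (without control D) to 3115 (without miDrp1KO A) when 1 library was left out, beside 1796. The causes were not tested. Genes whose groups do not overlap numbered 2438 to 4071 beside 2965. The order of levels held in 21 of 28 pairs in each subset of 5 libraries, and in 24 and 25 pairs with the longest and the RefSeq-matched transcript, the latter added after seeing the data. With 5 libraries the smallest exact p is 0.0625, so the test of the order cannot pass there. No paired analysis was made because no pairing of controls with knockouts is given in the sources used here. The replicate letters (B, C and D against A, E and F) only name the libraries. Depth limits Sdhd, Sdhaf3 and Sdhaf4, at 38 to 302 counts in a library.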
